A study of Homo sapiens with 6 samples.

Results

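Described here are 7 genes of the vitamin D system in the anaplastic thyroid carcinoma line 8505C: the catabolic enzyme CYP24A1, the activating enzymes CYP2R1, CYP27A1 and CYP27B1, and the receptors VDR, RXRA and RXRB. They were found by symbol among the 58735 named genes of the deposited expression table. CYP24A1 was the reason for the choice, because its level was much higher in a pair of the libraries labelled as HHEX knockdown. Its values are therefore a description with no test, whereas the other members were chosen by function, with earlier results of these data known. RNA-seq libraries came from 8505C cells with a control hairpin (CTRL shRNA, genotype label wild-type, libraries control1 to control3) and from 8505C cells with a hairpin against HHEX (HHEX shRNA, genotype label HHEX KD, libraries KD1 to KD3). HHEX is a homeobox transcription factor of thyroid development. All 6 libraries carry the label untreated, so that no vitamin D compound is named for either group. A single cell line was used, and the sources used here give neither the hairpin sequences nor whether the cells are clones.

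Vitamin D gains its activity in steps. CYP2R1 and CYP27A1 hydroxylate it at carbon 25, mainly in the liver, and CYP27B1, best known from the kidney, makes the hormone calcitriol from that product. Calcitriol binds VDR, a nuclear receptor that pairs with an RXR on DNA, and CYP24A1, which breaks down the hormone and its precursor, is the classic gene that the VDR and RXR pair switches on. Thyroid carcinomas can express VDR, CYP27B1 and CYP24A1.

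The coding sequences show what ties the members together. The stretch that encodes the heme-binding loop of the 4 cytochrome P450 enzymes is shown because it defines the family to which the catabolic and the activating enzymes both belong, with the codon of the cysteine that holds the heme iron in capitals. Sequences are those of GENCODE 29 principal transcripts on GRCh38, written 5′ to 3′ on the coding strand.
CYP24A1: tttggcgttggaaaaagaatgTGCattggt
CYP27B1: tttggctttggcaagcgcagcTGTatgggg
CYP27A1: tttggctatggggtccgggccTGCctgggc
CYP2R1: ttttccctaggaagaagacatTGTcttgga
The CYP24A1 stretch lies in exon 10 of 12 (chr20:54157430-54157459, minus strand) and shares 20 of 30 bases with CYP27B1, 19 with CYP2R1 and 16 with CYP27A1. The CYP27B1 stretch lies in exon 8 of 9 (chr12:57763653-57763682, minus strand) and that of CYP27A1 in exon 8 of 9 (chr2:218814686-218814715, plus strand). The stretch of CYP2R1 spans the junction of exons 4 and 5 of 5 on the minus strand of chromosome 11. For the receptors, the part of the first zinc finger that reads DNA is shown because VDR and its RXR partners have it in common, with the codons of the zinc-binding cysteines in capitals.
VDR: TGTgaaggcTGCaaaggcttcttc
RXRA: TGCgaggggTGCaagggcttcttc
RXRB: TGTgagggtTGCaagggcttcttc
These lie in exon 3 of 10 of VDR (chr12:47878970-47878993, minus strand), exon 4 of 10 of RXRA (chr9:134408963-134408986, plus strand) and exon 4 of 10 of RXRB (chr6:33197895-33197918, minus strand). RXRA and RXRB share 22 of 24 bases there, VDR and RXRB 21, and VDR and RXRA 20.

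The libraries need a remark before the results. HHEX stood at 12.7, 12.8 and 12.0 CPM in control1, control2 and control3, where CPM is the count scaled to library size, against 14.8 in KD1, 7.94 in KD2 and 7.13 CPM in KD3. The level in the library labelled KD1 thus goes against its label, at 118% of the control mean, with 63.6% in KD2 and 57.1% in KD3. Here KD1 to KD3 stand for the libraries by their labels alone, and so does the HHEX shRNA group that holds them. The difference in HHEX between the groups was not past the threshold of edgeR's quasi-likelihood test (log2 fold change −0.33, SE 0.28, Benjamini-Hochberg adjusted p = 0.527). KD1 and KD2 also stood apart from the rest: across genes their log2 CPM correlated at 0.989 with each other and at 0.954 to 0.962 with KD3 and the controls, while KD3 correlated with the controls at 0.971 to 0.977. Total counts over named genes ranged from 13333245 to 15144176, and 14280 genes passed the filter on low counts. Of these, 26 were called at an adjusted p under 0.05, which is 0.182% (0.105% higher and 0.077% lower in the HHEX shRNA group). In each group the titles give a pair of the 3 samples the same first replicate number, with a further number after it, and which columns these are cannot be told. The labels do not say whether the libraries of a group come from separate cultures, and the p-values therefore rest on a spread among libraries that may be technical in part.

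CYP24A1 (ENSG00000019186, chromosome 20, 54153449 to 54173973, minus strand) was several times higher in KD1 and KD2 than in the controls, and somewhat lower than the controls in KD3. It lay at 90.9, 81.0 and 81.6 CPM in control1, control2 and control3, against 518 in KD1, 553 in KD2 and 69.1 CPM in KD3. KD1 and KD2 were far above every control, and KD3 was below every control, so that the HHEX shRNA libraries lay on both sides of the control range. Relative to the control mean of 84.5 ± 5.54 CPM (SD, n = 3), KD1 was 6.13-fold and KD2 6.54-fold higher, and KD3 was at 81.7%. The exact Poisson interval of KD3, which covers counting error only, ran from 64.8 to 73.5 CPM (95%), and that of the lowest control, control2, from 76.5 to 85.7 CPM. On the log2 scale the differences from the control mean were 2.62 in KD1, 2.71 in KD2 and −0.29 in KD3. Among all tested genes this difference ranked 6 from the top in KD1, 5 in KD2 and 10899 in KD3. The share of tested genes more than 2-fold above the control mean amounted to 3.94% (KD1), 4.27% (KD2) and 1.92% (KD3). The share more than 2-fold below it was 8.49%, 8.46% and 3.63%. The pattern of CYP24A1, above every control in KD1 and KD2 but not in KD3, was found in 15.9% of tested genes. The group means, 380 ± 270 CPM against 84.5 ± 5.54 CPM (SD, n = 3 per group), describe no library of the HHEX shRNA group well. In libraries from whole cultures, a change in the number of expressing cells and a change in RNA per cell cannot be told apart.

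By point values, the order of the libraries by measured HHEX level was not their order by CYP24A1. KD1, with the highest HHEX value of the 6 libraries, and KD2, with a value below every control, had nearly equal CYP24A1. KD3, with the lowest HHEX value, had the lowest CYP24A1. The HHEX order is resolved only in part. The exact Poisson interval of HHEX in KD1, 12.9 to 16.9 CPM, overlapped that of every control. Those of KD2, 6.53 to 9.56 CPM, and KD3, 5.81 to 8.66 CPM, overlapped each other and lay below those of every control. Whether CYP24A1 follows HHEX was not tested.

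**Figure D1:**
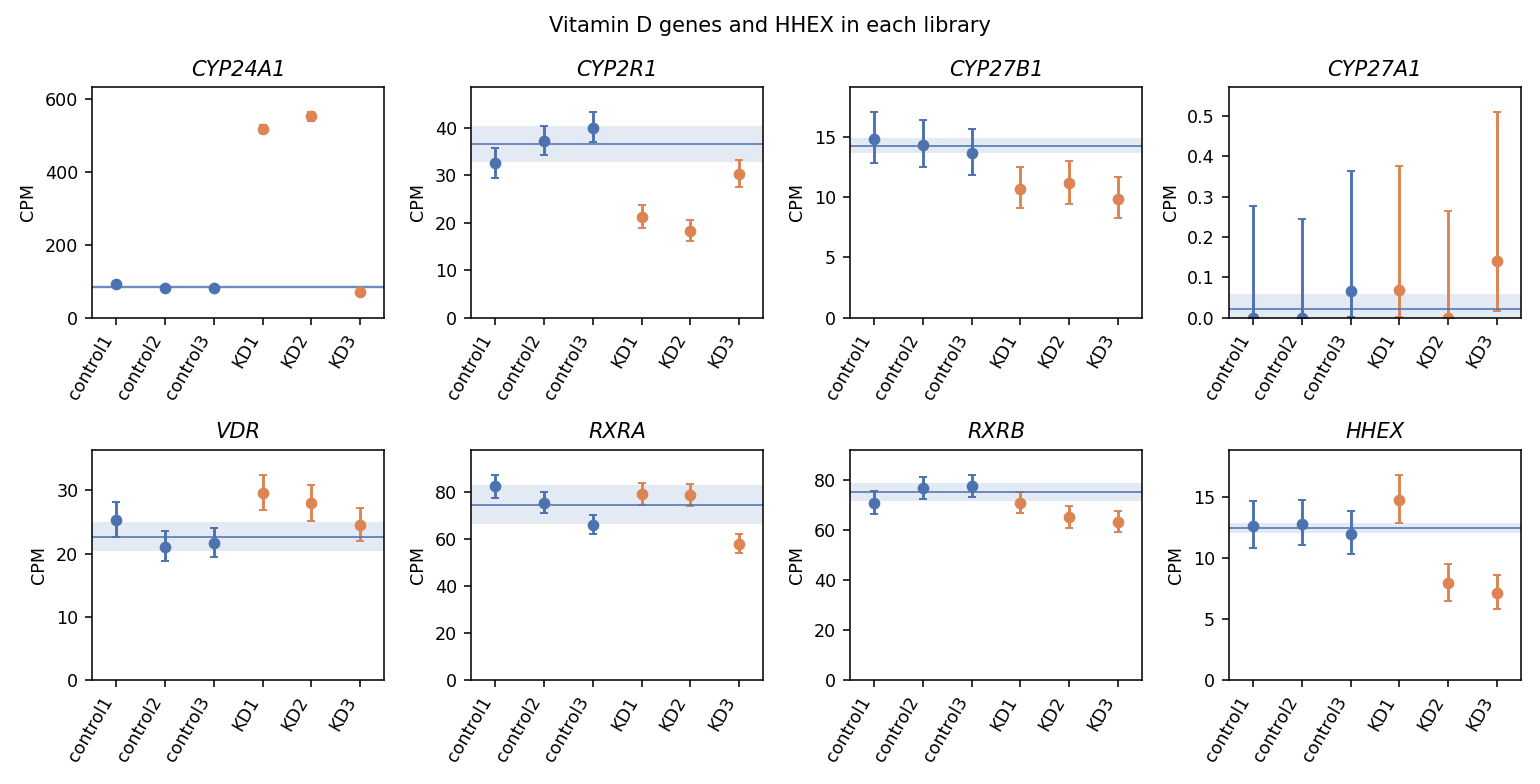
Level of each member and of HHEX (CPM, vertical axes from 0) in the 3 control libraries (blue) and the 3 libraries labelled HHEX shRNA (orange). Points are libraries, bars are exact 95% Poisson intervals of the count, and the line and band give the control mean and its SD. CYP24A1 stands at 518 and 553 CPM in KD1 and KD2, against 69.1 to 90.9 CPM in the other libraries.

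The activating enzymes showed nothing of this size, and the detected ones were lower, not higher, in the libraries labelled HHEX shRNA. CYP2R1 (ENSG00000186104, chromosome 11, 14877440 to 14892252, minus strand), the main enzyme of hydroxylation at carbon 25, lay at 32.5, 37.2 and 40.0 CPM in control1, control2 and control3 against 21.2 in KD1, 18.2 in KD2 and 30.3 CPM in KD3. All HHEX shRNA libraries were below all controls, with KD3 nearest to them. The log2 fold change was −0.65 (SE 0.20, 95% interval −1.12 to −0.19), with an adjusted p of 0.148 over all genes by edgeR. Without KD3 it was −0.87 and passed (edgeR adjusted p = 0.000751), in a fit that called 31.6% of all genes. That fit rests on KD1 and KD2, which correlated at 0.989. Whether this pair shares a first replicate number cannot be told. CYP2R1 thus ran against CYP24A1 in KD1 and KD2, at 57.9% and 49.9% of its control mean.

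CYP27B1 (ENSG00000111012, chromosome 12, 57762334 to 57768986, minus strand), which makes calcitriol, lay at 14.9, 14.4 and 13.7 CPM in control1, control2 and control3. In KD1, KD2 and KD3 it lay at 10.7, 11.2 and 9.88 CPM, respectively. The groups did not overlap, and the HHEX shRNA libraries lay close together, unlike for CYP24A1. The log2 fold change of −0.43 (SE 0.16, 95% interval −0.81 to −0.06) did not pass edgeR's test (adjusted p = 0.195). Groups that do not overlap with the HHEX shRNA libraries lower were found in 13.3% of tested genes, beside which 2 of 6 tested members stand. CYP27B1 shares 107 exonic bases, 3.11% of its exon length, with METTL1 on the same strand, whose counts were 103 to 237, so that reads of that stretch are uncertain. CYP27A1 (ENSG00000135929, chromosome 2, 218781749 to 218815293, plus strand), a mitochondrial sterol hydroxylase, had 0, 0 and 1 counts in the controls and 1, 0 and 2 counts in KD1, KD2 and KD3. It was the 1 member that did not pass the filter on low counts, and no difference is detectable at this depth, where 3 counts correspond to 0.196 to 0.225 CPM.

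None of the receptors passed the test between the groups. VDR (ENSG00000111424, chromosome 12, 47841537 to 47943048, minus strand) lay at 25.2, 21.1 and 21.7 CPM in control1, control2 and control3 against 29.6 in KD1, 27.9 in KD2 and 24.4 CPM in KD3. KD1 and KD2 were above every control and KD3 was within their range, at 1.31-fold, 1.23-fold and 1.08-fold the control mean. The log2 fold change of VDR was 0.27 (SE 0.15, 95% interval −0.08 to 0.62), with an edgeR adjusted p of 0.339. Without KD3 the edgeR adjusted p was 0.0703, in the fit that called 31.6% of all genes.

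RXRA (ENSG00000186350, chromosome 9, 134317098 to 134440585, plus strand) lay at 82.6, 75.6 and 66.1 CPM in the controls against 79.2 in KD1, 78.9 in KD2 and 58.0 CPM in KD3. KD1 and KD2 were inside the control range and KD3 below it. Its log2 fold change was −0.05 (SE 0.16, 95% interval −0.41 to 0.31, edgeR adjusted p = 0.871), and the sign turned without KD3 (0.10) and without control1 (0.05). RXRB (ENSG00000204231, chromosome 6, 33193588 to 33200688, minus strand) lay at 70.8, 76.5 and 77.5 CPM in the controls against 70.8 in KD1, 65.0 in KD2 and 63.3 CPM in KD3, where KD1 met the lowest control. Its log2 fold change was −0.18 (SE 0.12, 95% interval −0.44 to 0.09, edgeR adjusted p = 0.405). RXRB shares 244 exonic bases, 6.22% of its exon length, with SLC39A7 on the other strand, and no source used here says that reads were counted by strand. RXRG, the remaining RXR gene, had 0 counts in every library.

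Apart from CYP24A1, 0 of 5 tested members were called by edgeR at an adjusted p under 0.05, 2 of them (CYP2R1 and CYP27B1) had an unadjusted p under 0.05, and DESeq2 called 0. The shares over all tested genes were 0.182% by edgeR's adjusted p, 20.6% by its unadjusted p and 6.04% by DESeq2. Without KD1, the log2 fold changes were −0.59 for CYP2R1, −0.44 for CYP27B1, 0.21 for VDR, −0.13 for RXRA and −0.22 for RXRB, with edgeR adjusted p-values of 0.388 to 0.800. The intervals above leave room for differences of up to 0.62 on the log2 scale for VDR, 0.31 for RXRA and 0.09 for RXRB on the higher side.

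**Figure D2:**
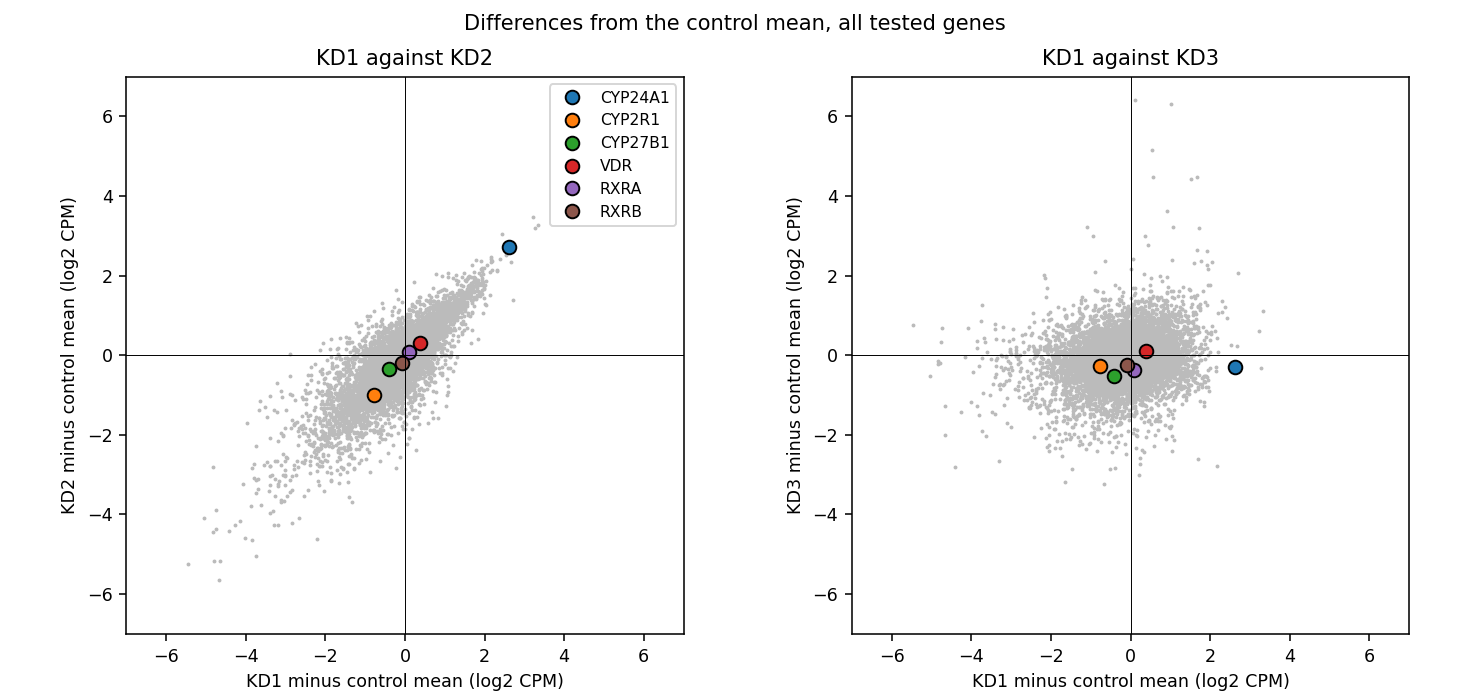
Difference from the control mean (log2 CPM) of all tested genes (grey) and of the 6 tested members (coloured), KD1 on the horizontal axes against KD2 (left) and KD3 (right). CYP24A1 lies at 2.62 in KD1, 2.71 in KD2 and −0.29 in KD3, while the other members lie within −0.99 and 0.39 in every library.

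Levels of different genes were compared per length, as FPKM, here the count divided by the merged exon length of GENCODE 29 and the total count of the library. In the controls CYP24A1 lay at 21.5 ± 1.33 FPKM (SD, n = 3) and RXRB at 19.3 ± 1.28, followed by CYP2R1 at 8.20 ± 1.02, RXRA at 6.81 ± 0.615, CYP27B1 at 4.20 ± 0.107 and VDR at 4.03 ± 0.385. The control ranges of CYP24A1 and RXRB overlapped, as did those of CYP2R1 and RXRA and those of CYP27B1 and VDR, so that the order within each of these pairs is not resolved. CYP27A1 was listed at 0 to 0.0228 FPKM in the controls. The catabolic enzyme was thus among the most abundant members per length even in control cells. The place of RXRA depends on the length used. With its principal transcript of 1846 bases in place of the 11083 bases of its merged exons it lay at 40.9 ± 3.70 (SD, n = 3), above RXRB at 26.6 ± 1.76 and CYP24A1 at 26.2 ± 1.62 on the same scale.

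The ratio of CYP24A1 to CYP27B1, of the enzyme that degrades calcitriol to the enzyme that makes it, was 5.28, 4.88 and 5.16 in FPKM in control1, control2 and control3. KD1 had a ratio of 41.8, KD2 one of 42.9 and KD3 one of 6.05. KD1 and KD2 lay far above the controls in this ratio. KD3 lay only a little above them, with both genes below the controls there. The ratio in KD3 rests on 140 counts of CYP27B1, against 199 to 216 in the controls. No interval was computed for the ratio, so that the small difference of KD3 is not resolved. The ratio of CYP24A1 to the receptor gene VDR was 5.15, 5.49 and 5.38 in the controls against 25.0 in KD1, 28.3 in KD2 and 4.04 in KD3. Of the 58735 named genes, 20935 (KD1) to 21961 (control3) had an FPKM above 0 in a library. Among all 58735, CYP24A1 ranked 1798, 2128 and 1971 by FPKM in control1, control2 and control3, 2498 in KD3, and 232 and 202 in KD1 and KD2. These are levels of transcripts, and neither enzyme activity nor vitamin D metabolites are part of the data used here.

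**Figure D3:**
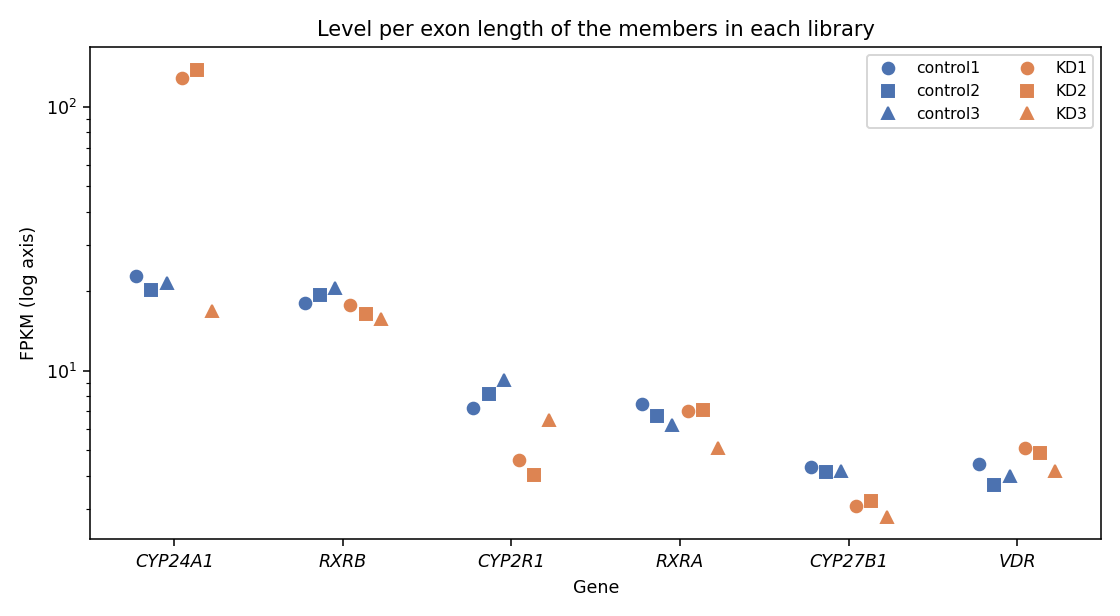
FPKM (vertical log axis) of the 6 members above the low-count filter in each library, control in blue and HHEX shRNA in orange. CYP24A1 moves from 20.2 to 22.9 FPKM in the controls to 128 and 138 FPKM in KD1 and KD2, and RXRB stays between 15.7 and 20.6 FPKM.

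CYP24A1 is the most sensitive of many genes that calcitriol is known to act on. In a list of 25 other genes known to respond to the receptor in various tissues, 12 passed the filter, and the calcium transport genes TRPV6, TRPV5, S100G and CALB1 did not, with at most 0.532 CPM in any library. edgeR called 0 of the 12 between the groups, and 5 had an unadjusted edgeR p under 0.05, beside 20.6% of all tested genes. The log2 fold changes of the 12 were positive for 6 and negative for 6. The median difference from the control mean stood at 0.08 in KD1, −0.05 in KD2 and 0.23 in KD3, beside −0.02, −0.02 and −0.01 for all tested genes. These medians are over genes that differed in both directions.

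Single genes of the list went in different directions. TXNIP, an inhibitor of thioredoxin, lay at 14.9, 11.3 and 9.72 CPM in control1, control2 and control3 against 34.2 in KD1, 35.0 in KD2 and 10.9 CPM in KD3. It was the 1 target gene above every control in KD1 and KD2 and not in KD3 (log2 fold change 1.16, SE 0.41, edgeR adjusted p = 0.189). THBD, the anticoagulant receptor thrombomodulin, lay at 17.7, 17.8 and 15.7 CPM in the controls against 30.7 in KD1, 31.7 in KD2 and 19.8 CPM in KD3, all above the controls (0.68, SE 0.20, edgeR adjusted p = 0.140). CDKN1A, the cell cycle inhibitor p21, lay at 40.3, 36.6 and 26.6 CPM in the controls and was highest in KD3, at 92.8 CPM, with 55.5 in KD1 and 55.8 in KD2 (0.98, SE 0.24, edgeR adjusted p = 0.109).

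NRIP1, a corepressor of nuclear receptors, lay at 121, 86.4 and 106 CPM in the controls against 134 in KD1, 173 in KD2 and 162 CPM in KD3, again without overlap (log2 fold change 0.58, SE 0.16, edgeR adjusted p = 0.126). SEMA3B, a secreted semaphorin, had the smallest p of the list. It lay at 78.4, 126 and 78.3 CPM in the controls against 39.7 in KD1, 33.2 in KD2 and 43.6 CPM in KD3, lower in all of them (−1.28, SE 0.21, edgeR adjusted p = 0.0610). These 5 were the target genes with an unadjusted p under 0.05. ATP2B1, a calcium pump of the plasma membrane, and GADD45A, a stress gene, were below every control in KD1 and KD2 and not in KD3. Groups did not overlap for 3 higher and 1 lower of the 12 genes, beside 11.6% and 13.3% of all tested genes.

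Of 9 genes that supply, carry or otherwise process vitamin D, 5 were tested. edgeR called 0 of them (0 at an unadjusted p under 0.05), beside 0.182% (20.6% unadjusted) of all tested genes. FDX1 and FDXR, which pass electrons to the mitochondrial P450 enzymes CYP24A1, CYP27A1 and CYP27B1, had log2 fold changes of 0.12 (SE 0.15, edgeR adjusted p = 0.678) and −0.20 (SE 0.22, edgeR adjusted p = 0.626). DHCR7, which uses up the precursor of vitamin D for cholesterol, lay at −0.13 (SE 0.12, edgeR adjusted p = 0.541). POR, the electron donor of the microsomal CYP2R1, lay at 40.3, 43.2 and 39.1 CPM in control1, control2 and control3, at 30.5 and 26.6 CPM in KD1 and KD2 and at 72.6 CPM in KD3. It was thus lower than every control in the libraries with high CYP24A1 and higher in KD3, the reverse of CYP24A1. LRP2 and GC, the uptake receptor and the plasma carrier of vitamin D, had 0 counts in every library.

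Among 15 partners and coregulators of the receptor, 14 were tested and 0 were called by edgeR. An unadjusted edgeR p under 0.05 was found for 2 of the 14, beside 20.6% of all tested genes. BAZ1B, of a chromatin complex that binds VDR, lay at 142, 111 and 122 CPM in the controls against 188 in KD1, 180 in KD2 and 125 CPM in KD3 (log2 fold change 0.40, SE 0.18, edgeR adjusted p = 0.246). KD1 and KD2 were above every control and KD3 was within their range. PDIA3, an isomerase of the endoplasmic reticulum described as a membrane binder of calcitriol, was lower in all libraries labelled HHEX shRNA (−0.96, SE 0.28, edgeR adjusted p = 0.135). CEBPB, a factor known to act on the CYP24A1 promoter, lay at 19.9, 36.2 and 24.0 CPM in the controls against 9.32 in KD1, 6.01 in KD2 and 28.6 CPM in KD3 (−0.87, SE 0.55, edgeR adjusted p = 0.397). The median log2 fold change of the 14 was 0.07, beside −0.01 for all tested genes.

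RXR also serves other receptors, and 12 of 15 listed ones were tested. edgeR called 0 (4 at an unadjusted p under 0.05, beside 20.6% of all tested genes). RARB, a retinoic acid receptor, lay at 53.7, 48.1 and 51.2 CPM in the controls against 88.2 in KD1, 81.7 in KD2 and 59.5 CPM in KD3, all above the controls (log2 fold change 0.58, SE 0.16, edgeR adjusted p = 0.129). RARA lay at 30.2, 38.2 and 28.9 CPM in the controls against 20.3 in KD1, 20.7 in KD2 and 27.3 CPM in KD3, all below them (−0.51, SE 0.18, edgeR adjusted p = 0.182). NR4A1, an orphan receptor induced by growth signals, and NR1H3, an oxysterol receptor, had log2 fold changes of 0.56 (SE 0.21, edgeR adjusted p = 0.199) and −0.63 (SE 0.27, edgeR adjusted p = 0.241).

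RXR pairs other than that with VDR have their own target genes. Of 12 listed genes for retinoid and oxysterol catabolism or targets, 6 were tested and 0 were called by edgeR. An unadjusted edgeR p under 0.05 was found for 2 of the 6, beside 20.6% of all tested genes. Groups did not overlap for 2 of the 6, both lower, beside 13.3% of all tested genes. CYP26B1, which degrades retinoic acid as CYP24A1 degrades calcitriol, lay at 1.42, 1.80 and 1.96 CPM in control1, control2 and control3 against 0.540 in KD1, 0.358 in KD2 and 0.918 CPM in KD3 (−1.50, SE 0.46, edgeR adjusted p = 0.146). All HHEX shRNA libraries were below all controls, at 8, 5 and 13 counts in KD1, KD2 and KD3 against 19, 27 and 30. The exact Poisson interval of KD3, 0.489 to 1.57 CPM, overlapped that of control1, 0.856 to 2.22 CPM. ABCG1, a cholesterol exporter induced by oxysterol receptors, lay at 4.34, 2.46 and 3.06 CPM in the controls and had 1 count in KD1 and 0 in KD2, with 1.34 CPM in KD3 (edgeR adjusted p = 0.176). MYLIP, a ubiquitin ligase with the same kind of control, lay at 21.6, 23.6 and 24.4 CPM in the controls against 6.48 in KD1, 9.59 in KD2 and 24.1 CPM in KD3 (−0.80, SE 0.43, edgeR adjusted p = 0.324). MYLIP was below every control in KD1 and KD2 and within their range in KD3. DHRS3, a retinal reductase, differed by −0.17 (SE 0.19, edgeR adjusted p = 0.621).

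Over all lists, edgeR called 0 of 49 tested pathway genes, and 13 had an unadjusted edgeR p under 0.05. DESeq2 called 5 higher (CDKN1A, NRIP1, RARB, THBD and TXNIP) and 2 lower (PDIA3 and SEMA3B). The shares over all tested genes were 0.182% by edgeR's adjusted p, 20.6% by its unadjusted p and 6.04% by DESeq2. KD1 and KD2, but not KD3, were above every control for 7 and below every control for 7 of the 49 genes, beside 15.9% and 16.6% of all tested genes. Without KD3 edgeR called 8 higher and 11 lower of 49, in a fit that called 16.5% higher and 15.1% lower of all genes. Among the 49 pathway genes, more than 2-fold above the control mean was 1 gene in KD1 and 1 in KD2, TXNIP in both. In KD3 there were 2, CDKN1A and DUSP10. The shares of all tested genes above this size were 3.94% (KD1), 4.27% (KD2) and 1.92% (KD3). More than 2-fold below the control mean were 6 pathway genes in KD1, 7 in KD2 and 2 in KD3, beside 8.49%, 8.46% and 3.63% of all tested genes.

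**Figure D4:**
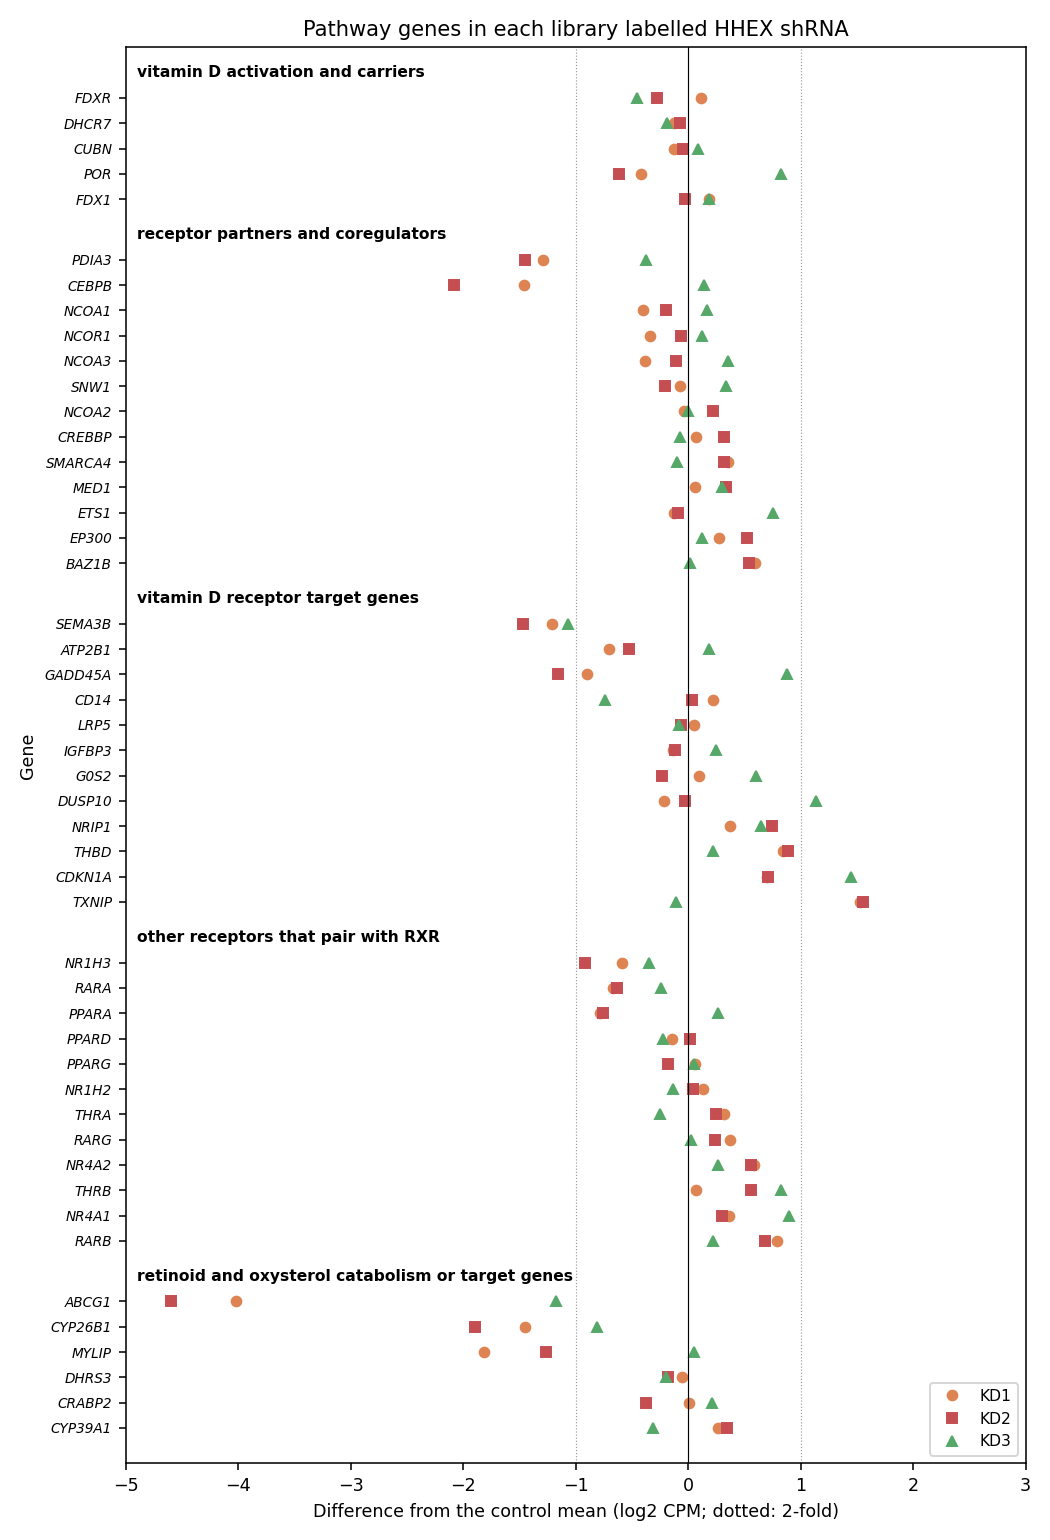
Difference from the control mean (log2 CPM) of 48 of the 49 tested pathway genes in KD1, KD2 and KD3, by list and ordered by log2 fold change. Dotted lines mark a 2-fold difference, and TXNIP is the 1 gene beyond it on the higher side in KD1 and KD2.

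Genes near CYP24A1 on chromosome 20 showed no difference of its size. Of 21 other genes within 1 Mb, 4 were tested, and each had overlapping groups, beside 24.9% of all tested genes without overlap. The nearest of them, PFDN4, a prefoldin subunit 33874 bases away, was at 82.3, 109 and 85.3 CPM in control1, control2 and control3 against 79.5 in KD1, 67.8 in KD2 and 105 CPM in KD3. KD1 and KD2 were below every control there, and KD3 was within their range. ZNF217, a zinc finger oncogene of the same region, was at 146, 117 and 127 CPM in the controls against 151 in KD1, 165 in KD2 and 145 CPM in KD3. KD1 and KD2 were above every control, at 1.16-fold and 1.27-fold the control mean, and KD3 was within the control range. AL157838.1 and RPL12P4, the other tested neighbours, lay below 2 CPM in every library. RPL12P4, with 11 counts in KD1 and 9 in KD2, was below every control there and not in KD3. Of all tested genes, 15.9% were above and 16.6% below every control in KD1 and KD2 but not in KD3.

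The genes whose log2 CPM over the 6 libraries most resembled that of CYP24A1, among 10677 other genes with a mean of at least 5 CPM, were CENPL, ANP32E, LINC01615, WDR76, FUT8 and RNF4, with Pearson r of 0.998 to 0.999. With KD1 and KD2 close together and the other libraries close together, such values mostly measure this one division, and 1203 of the genes had an r above 0.9. CENPL, a kinetochore protein, stood at 37.9 and 38.3 CPM in KD1 and KD2 and at 14.4 to 17.3 CPM in the other libraries. FUT8, which adds fucose to glycans, stood at 117 and 113 CPM against 45.5 to 51.9 CPM. On the opposite side SLC7A5, an importer of large amino acids, had the lowest r, −0.9996, with 130 and 127 CPM in KD1 and KD2 and 457 to 525 CPM in the other libraries, and DECR1, TCEA1 and MIA2 followed.

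Markers of dividing cells stood high in the same libraries as CYP24A1, without passing the test between the groups. MKI67, the antigen Ki-67, lay at 158, 108 and 103 CPM in control1, control2 and control3 against 401 in KD1, 469 in KD2 and 73.4 CPM in KD3. The 6 markers of the list were MKI67, TOP2A, CCNB1, CDK1, PLK1 and AURKA. All 6 were above every control in KD1 and KD2 and not in KD3, a pattern of 15.9% of all tested genes. The list medians were 1.39, 1.32 and −0.68 on the log2 scale in KD1, KD2 and KD3. edgeR called 0 of the 6 (0 at an unadjusted p under 0.05), beside 0.182% (20.6% unadjusted) of all tested genes. The summed level of the 6 markers was 876 to 1160 CPM in the controls against 2503 in KD1, 2606 in KD2 and 694 CPM in KD3. The part of cell division in the CYP24A1 result was not tested.

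**Figure D5:**
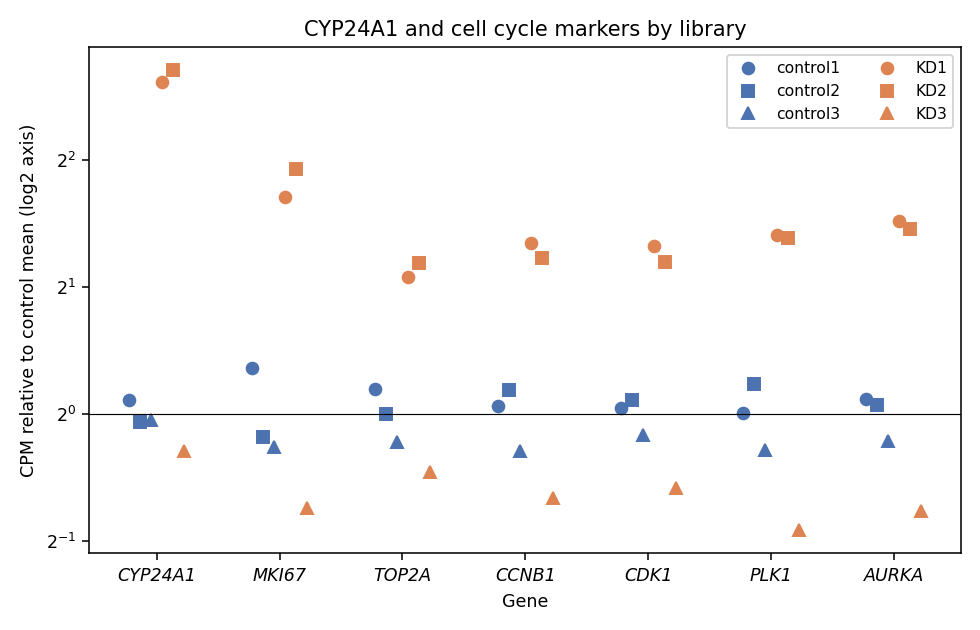
CPM of CYP24A1 and of 6 cell cycle markers relative to the control mean of each gene (vertical log2 axis, control in blue, HHEX shRNA in orange). In KD1 and KD2 all 7 genes are above every control, with CYP24A1 the farthest at 6.13 and 6.54, and in KD3 all are below 1.

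Of markers of other cell types, the leukocyte markers summed to 0 to 0.918 CPM in all libraries, with LYZ at 0. The kidney tubule markers, from a tissue known for CYP24A1, summed to 1.69 to 2.19 CPM, mainly from CUBN, with UMOD and LRP2 at 0. The fibroblast markers summed to 43.7 to 55.9 CPM in the controls and to 42.6 (KD1), 47.7 (KD2) and 14.4 CPM (KD3). Most of this was COL3A1, a collagen, at 36.5 to 51.5 CPM in the controls. Over all libraries the endothelial markers summed to 5.08 to 16.2 CPM, mainly from CDH5, a cadherin, at 10.3 to 10.9 CPM in the controls. KD3 was lowest in both of these lists, while KD1 and KD2 were near the controls. Of thyroid markers, NKX2-1, PAX8 and FOXE1 passed the filter, whereas the differentiation genes TG and TSHR reached at most 0.299 CPM in any library. Of epithelial markers KRT8 and KRT18 were abundant, and KRT19 and CDH1 reached at most 0.353 CPM. KRT8, at 619, 664 and 446 CPM in the controls, stood at 1017 in KD1, 901 in KD2 and 487 CPM in KD3. EPCAM, at 1.33 to 2.28 CPM in the controls, stood at 0.203 in KD1, 0.501 in KD2 and 1.69 CPM in KD3. These levels rest on few counts, 20 to 35 in the controls, 7 in KD2 and 3 in KD1, which is the floor. KRT18, at 382, 456 and 325 CPM in the controls, stood at 394 in KD1, 343 in KD2 and 361 CPM in KD3. Thus KRT8 was above and EPCAM below every control in KD1 and KD2 and not in KD3, whereas KRT18 overlapped. Their part in the CYP24A1 result was not tested.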

How the data were processed

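The 6 RNA-seq libraries of 8505C cells comprised 3 per hairpin. The labels' protocols name Trizol for RNA extraction, mRNA capture and TIANSeq library kits. The sources used here name no aligner, counter, genome build or strand setting. The authors deposited raw counts per gene. Their 6 columns of length-scaled values were not used. The FPKM in the report was computed from the counts with the merged exon length of GENCODE 29, which all 58735 named genes have. Start and end of 58672 of them equal GENCODE 29 on GRCh38. A column's name shows its group and not which titled sample it is, and columns were treated as unnumbered libraries of their group.

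The 998 rows without a gene name (0.239% to 0.298% of counts) were left out. The remaining counts were fitted with edgeR 4.0.16 in R 4.3.3 with limma 3.58.1: filterByExpr by group, TMM scaling, glmQLFit with robust estimation and glmQLFTest between the groups without covariates, adjusted by Benjamini-Hochberg over 14280 genes at a threshold of 0.05. The SE is the fold change over the root of its F statistic, and the 95% intervals of fold changes are not adjusted for the number of genes. CPM used TMM-scaled library sizes, and log2 CPM a prior count of 2. A floor of 3 counts and the Poisson intervals cover counting error only, since no molecular identifiers are named. Alternatives were RLE, upper-quartile and no scaling, no filter, no robust estimation, DESeq2 1.42.0, other prior counts (0.5 and 5) and each library left out. The code was tested on simulated data.

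Members, lists and tests were chosen with earlier results of these data known. The text names the members, HHEX, up to 4 tested genes of each list with the smallest p, tested genes within 1 Mb of CYP24A1, the 6 genes with the highest and the 4 with the lowest r to CYP24A1 at a mean of at least 5 CPM, and up to 3 markers of a list. TXNIP, ATP2B1, GADD45A, DUSP10, genes near 0 and further markers were named after their values were seen. All 113 list entries were matched by symbol, and a few are counted in their lists but not reported here by name. Promoter and protein sequences were not used here.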

Additional observations from a re-analysis of the deposited data

How the results depend on the processing

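The direction of CYP24A1 in KD1, KD2 and KD3 and those of CYP2R1, CYP27B1, VDR and RXRB held under every alternative run for them. RXRA ran from −0.14 to 0.10 on the log2 scale over the left-out libraries, positive without KD3 (0.10) and without control1 (0.05). CYP2R1 ran from −0.87 to −0.50, and passed edgeR's test without KD3 and without the filter on low counts (−0.65, adjusted p = 0.0189), while its adjusted p was 0.0718 by DESeq2. Called genes numbered 26, against 1359 without that filter, 862 by DESeq2, and 0 to 4675 over the left-out libraries: 0 without KD1, KD2, control2 or control3 (by edgeR, with 1789, 1625, 1947 and 1806 at an unadjusted p under 0.05), 1 without control1 and 4675 without KD3. Higher and lower calls were 15 and 11, with 15 and 20 by upper-quartile scaling and 15 and 22 with no scaling. The called share of all tested genes was 0.182%, against 0.259% with no scaling, 4.8% without the filter, 6.04% by DESeq2 and 31.6% without KD3. Pathway genes called by edgeR numbered 0 (13 at an unadjusted p under 0.05). They numbered 1 with no scaling (SEMA3B), 9 without the filter, 7 by DESeq2 and 0 to 19 over the left-out libraries, with 19 without KD3. The cause of these changes was not tested. With the length of the principal transcript, an alternative chosen after seeing the data, control means in FPKM were 26.2 for CYP24A1, 16.6 for CYP2R1, 5.69 for CYP27B1, 5.83 for VDR, 40.9 for RXRA and 26.6 for RXRB. At this depth CYP27A1 and RXRG were at or under 3 counts in every library. No paired analysis was possible because the columns of the table do not carry the replicate numbers of the sample titles.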
